A study of Mus musculus with 2031 samples.

Results

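Cystatin C, encoded by Cst3, is a small secreted protein that blocks cysteine proteases, and the cathepsins are the proteases and related enzymes of the lysosome. Their 10 genes examined here were Cst3 and the cathepsin genes Ctsa, Ctsb, Ctsd, Ctsf, Ctsh, Ctsl, Ctso, Ctss and Ctsz, out of 49671 genes in the count files. They were chosen by name, with their measured levels in these cells already known, and in particular selected on how those levels differed between cell types and between brain areas. Levels across cell types and areas are therefore given as a description, and nothing about the members is supported by a p-value. Cortex and hippocampus of C57BL/6J mice at postnatal day 56 were dissociated with papain, and cells that carried ACSA-2, an epitope of the astrocyte sodium pump subunit ATP1B2, and lacked the oligodendrocyte antigen O1 were sorted singly for Smart-seq2, a full-length RNA sequencing method. No group was given any treatment or genetic change. Of 4 cell suspensions, both cortical ones came from 1 mouse each of the same litter, and both hippocampal ones from pools of littermates from other litters, so an effect of brain area and effects of litter or of pooling cannot be told apart. The authors assigned the cells to types and divided astrocytes into 5 subtypes, AST1 to AST5, and those labels were used as given. The library PCR block also went nearly with area. All cortical astrocytes were in the first block, against 52 of 393 and 61 of 428 hippocampal ones.

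Most cathepsins are made as inactive proenzymes and become active in acid late endosomes and lysosomes, where they degrade proteins delivered by endocytosis, phagocytosis or autophagy. Cystatin C leaves the cell and is abundant in cerebrospinal fluid, where it inhibits cysteine cathepsins that escape or are secreted. In the brain, microglia are known for a rich set of lysosomal enzymes, and astrocytes are a known source of cystatin C.

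Counts came from 2030 cells, of which 1781 were typed astrocytes (461 and 499 from cortex, 393 and 428 from hippocampus), while the other typed cells were mural (27 and 12 from cortex, 48 and 47 from hippocampus), endothelial (30), neuronal (17), microglial (11) and oligodendrocytic (9). A further 15 cells had no type and 33 found no match by name in the cell list. The typed astrocytes used here were fewer than the paper reports. A cell held a median of 1458410 counts in genes, with a range from 600758 to 3238220. The labels were checked against marker lists. All 8 microglial markers were found in over 50% of the microglial cells and summed to between 40904 and 55077 CPM (the count of a gene scaled to a fixed total over all genes, as counts per 1e6) there, against 15.5 to 50.3 CPM in the astrocytes of the 4 suspensions. The 7 astrocyte markers summed to between 37986 and 39856 CPM in astrocytes and 2.30 to 473 CPM in mural cells. Microglial sums held 115 to 7468 CPM of the astrocyte markers, with 1 of the 7 at 0. Endothelial sums held 10904 to 26306 CPM of the 7 mural markers, against 50718 to 59802 CPM in mural cells. Of these markers 3 were found in over 50% of endothelial cells. The part of mural RNA in the endothelial values was not tested. In AST4 the astrocyte markers summed to 16623 to 29674 CPM over its 3 sums, 1 of them of 2 cells, and 4 of 7 were found in over 50% of cells, fewer than in the other subtypes, where all 7 were. AST5 cells differed from all other astrocytes in RNA content, with a median of 1.59% of reads outside exons against 10.7 to 13.96% in AST1 to AST4, and a median of 1675 genes detected. Levels are given as CPM of the counts summed over the cells of a type in a suspension, with mean ± SD over suspensions that held at least 5 cells of it.

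The windows just before the start of 4 of these genes are shown because the genes stand for the patterns described next. Cst3 was high in astrocytes and microglia, and Ctss was nearly limited to microglia. Ctsd was present in every type and highest in microglia. Ctsf was highest in astrocytes when the cells of a type were pooled, though pooled AST4 and AST5 lay below microglia. The stretches lie within 250 bases before the RefSeq start (GRCm38.p6) and stop at the outermost Gencode start, and capitals mark the letters CACGTG, the core of the element bound by the lysosomal regulators TFEB and TFE3.
Cst3: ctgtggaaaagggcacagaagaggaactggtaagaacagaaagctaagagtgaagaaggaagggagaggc
Ctss: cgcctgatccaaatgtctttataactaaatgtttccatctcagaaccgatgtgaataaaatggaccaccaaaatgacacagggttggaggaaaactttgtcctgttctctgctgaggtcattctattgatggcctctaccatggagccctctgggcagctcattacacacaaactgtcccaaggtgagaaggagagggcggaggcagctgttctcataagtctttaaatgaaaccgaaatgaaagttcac
Ctsd: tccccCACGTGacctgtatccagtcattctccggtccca
Ctsf: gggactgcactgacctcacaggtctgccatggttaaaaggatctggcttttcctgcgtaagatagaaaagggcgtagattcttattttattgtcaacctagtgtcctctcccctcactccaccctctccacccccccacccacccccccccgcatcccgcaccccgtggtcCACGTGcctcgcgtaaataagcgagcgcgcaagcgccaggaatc
Their positions were chr2:148875693-148875762 for Cst3 on the minus strand, chr3:95526536-95526785 for Ctss on the plus strand, chr7:142388039-142388077 for Ctsd on the minus strand and chr19:4854915-4855129 for Ctsf on the plus strand. Over the full 250 bases, CACGTG, which reads the same on both strands, occurred in 4 of the 8 genes with an entry (Ctsa, Ctsd, Ctsf and Ctsl) and in 6.86% of all 27025 genes. Ctsd held it 2 times. The letters GAGGAAGT, a core bound by the myeloid factor PU.1, occurred on either strand in 0 of the 8 and in 2.79% of all genes. These matches describe the letters of the windows only. Ctsb and Ctsh had no entry.

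Cst3 was among the most abundant RNAs of astrocytes. By counts it ranked 3 among all genes for AST1, 9 for AST2, 5 for AST3 and AST5, and 4 for AST4. It ranked 1 for microglia, against 39 for mural and 93 for endothelial cells. Every one of the 1781 astrocytes held a Cst3 count, and the lowest astrocyte stood at 831 CPM. On the per-length scale, CPM per kilobase of the principal transcript, the level in pooled astrocytes was 14626 for Cst3 and 276.7 for Ctsd, the next of the members. The other values on that scale were 254.6 for Ctsb, 240 for Ctsf, 178 for Ctsz, 122.3 for Ctso, 113.7 for Ctsa, 67.7 for Ctsl, 1.40 for Ctsh and 1.23 for Ctss, and the order depends on the transcript taken for the length (860 bases for Cst3, 6168 for Ctsl). In pooled microglia the order by the same scale was Cst3 at 31160, Ctss at 5863, Ctsd at 3785 and Ctsz at 1094, ahead of Ctsb at 753.

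In AST1, Cst3 stood at 16553 and 16124 CPM in the cortical suspensions and at 18381 and 18550 CPM in the hippocampal ones. In AST2 the values were 8468, 8285, 11618 and 9210 CPM in the same order, the third of them from 10 cells. In AST3 they were 10420, 9963, 9554 and 10088 CPM. AST1 was thus higher than AST2 and AST3 in all 4 suspensions, and AST2 and AST3 overlapped. AST4, with at least 5 cells in the hippocampus only, stood at 12000 and 10731 CPM. AST5 stood at 14311, 15219 and 12378 CPM in 8, 10 and 6 cells of the suspensions that held enough. In order of CPM, microglia were followed by AST1, AST5, AST4, AST3 and AST2, but with spike-in scaling AST5 lay below AST3 in 3 of 3 suspensions (log2 ratio -0.20 ± 0.18). By CPM AST2 was not separated from AST3 or AST4 by its range over suspensions. Within suspensions the log2 ratio of AST3 over AST2 was 0.10 ± 0.27 by CPM (higher in 3 of 4), but 0.50 ± 0.33 with spike-in scaling and 0.25 ± 0.14 with TMM scaling (higher in 4 of 4 with each).

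Taken within a suspension, the log2 ratio of Cst3 in AST1 over AST2 was 0.90 ± 0.16 (SD, n = 4), a 1.87-fold difference in level, and 0.80 ± 0.14 over AST3 (n = 4). The medians over all genes were 0.22 over AST2 and -0.08 over AST3. Members that were higher in AST1 than AST2 in all 4 suspensions numbered 3 of 8 by CPM (Cst3, Ctsb and Ctso, to which TMM scaling adds Ctsa and Ctsz), beside 8.21% of all genes, and those higher in AST1 than AST3 numbered 1 of 8 (Cst3), beside 7.37%. Ctsh and Ctss were left out because most astrocyte sums held no or hardly any counts of them. These ratios use the values that chose the genes and that went into the clustering, so nothing is read from the counts. Scaled to the spike-in RNA added to each well instead of to total counts, the log2 ratio over AST2 was 0.95 and that over AST3 was 0.45 ± 0.38, with a lowest suspension of 0.06.

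Single astrocytes overlapped between subtypes. Of the AST2 cells, 3.75% in the first and 8.48% in the second cortical suspension, and 20% (of 10 cells) and 9.09% in the hippocampal ones, lay above the median AST1 cell of their own suspension. For AST3 the shares were 10.4%, 17.9%, 9.23% and 6.10%. For AST4 they were 14.6% and 12.5%. Across 12 cortical plates with at least 5 AST1 cells, the plate level of Cst3 in AST1 ran from 12321 to 20677 CPM, and across 16 hippocampal plates from 15019 to 21121 CPM. In AST2 the 16 cortical plates ran from 6747 to 9798 CPM, below every AST1 plate.

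**Figure D1:**
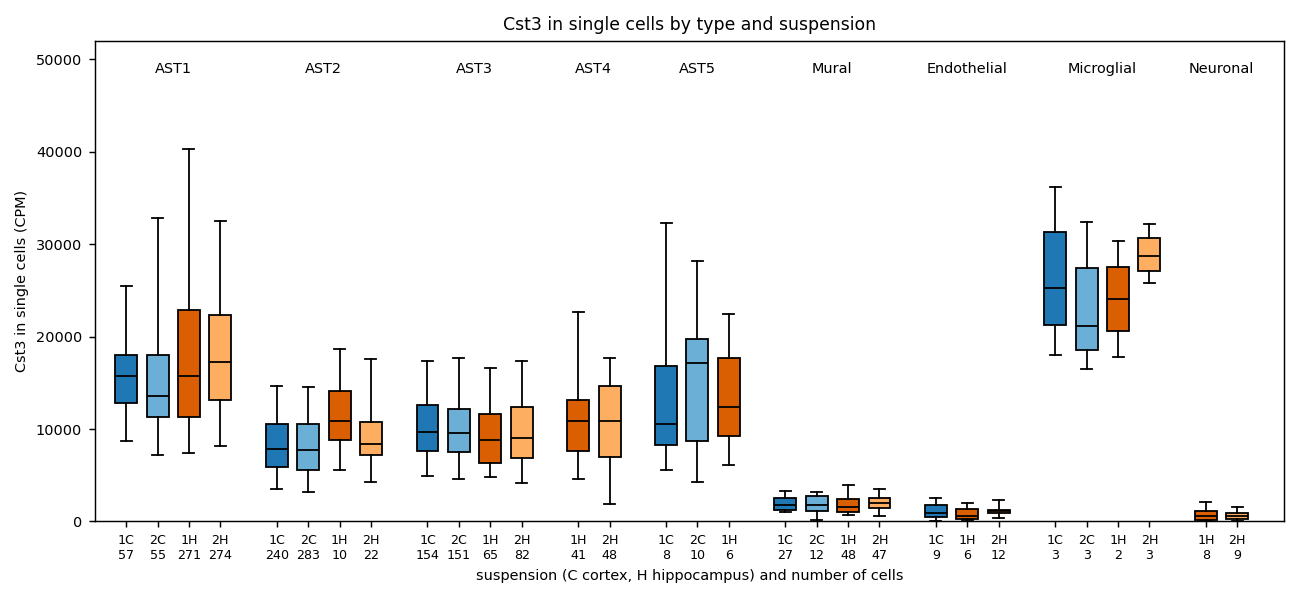
Cst3 in single cells in CPM (vertical axis, linear) by type, suspension and number of cells, where boxes span the quartiles, lines mark medians and whiskers reach the 5th and 95th percentiles. The AST1 medians, from 13574 to 17195, lie above those of AST2, AST3 and AST4 of the same suspension. The AST2 box overlaps that of AST1 in the first hippocampal suspension only, from 10 AST2 cells. The AST3 box does so there and in the second cortical suspension, and the AST4 box in both hippocampal ones. Every AST5 box overlaps that of AST1. In the second cortical suspension the AST5 median of 17122, from 10 cells, lies above the AST1 median. The microglial medians, of 2 or 3 cells each, lie highest.

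Outside astrocytes, the 11 microglial cells held the most Cst3, from 15975 CPM in the lowest through a median of 25435 to 37376 CPM in the highest cell. Their sums were 28218, 23986, 24589 and 28830 CPM in the 4 suspensions, each from 2 or 3 cells, and the log2 ratio over the astrocytes of the same suspension was 1.07 ± 0.38 (n = 4). Mural cells stood at 1917 ± 56.2 CPM (n = 4), from 1846 to 1981 CPM, and endothelial cells at 1051 ± 190 CPM (n = 3). Neuronal cells held 824 and 586 CPM. The 9 oligodendrocytic cells ranged from 0 to 1389 CPM with a median of 334.5 CPM. The mural level was 2.71 ± 0.36 below that of astrocytes of the same suspension on the log2 scale (n = 4), with no overlap. Since the sort kept cells for an astrocyte surface antigen, the other types are the few that passed it and may not stand for their type.

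**Figure D2:**
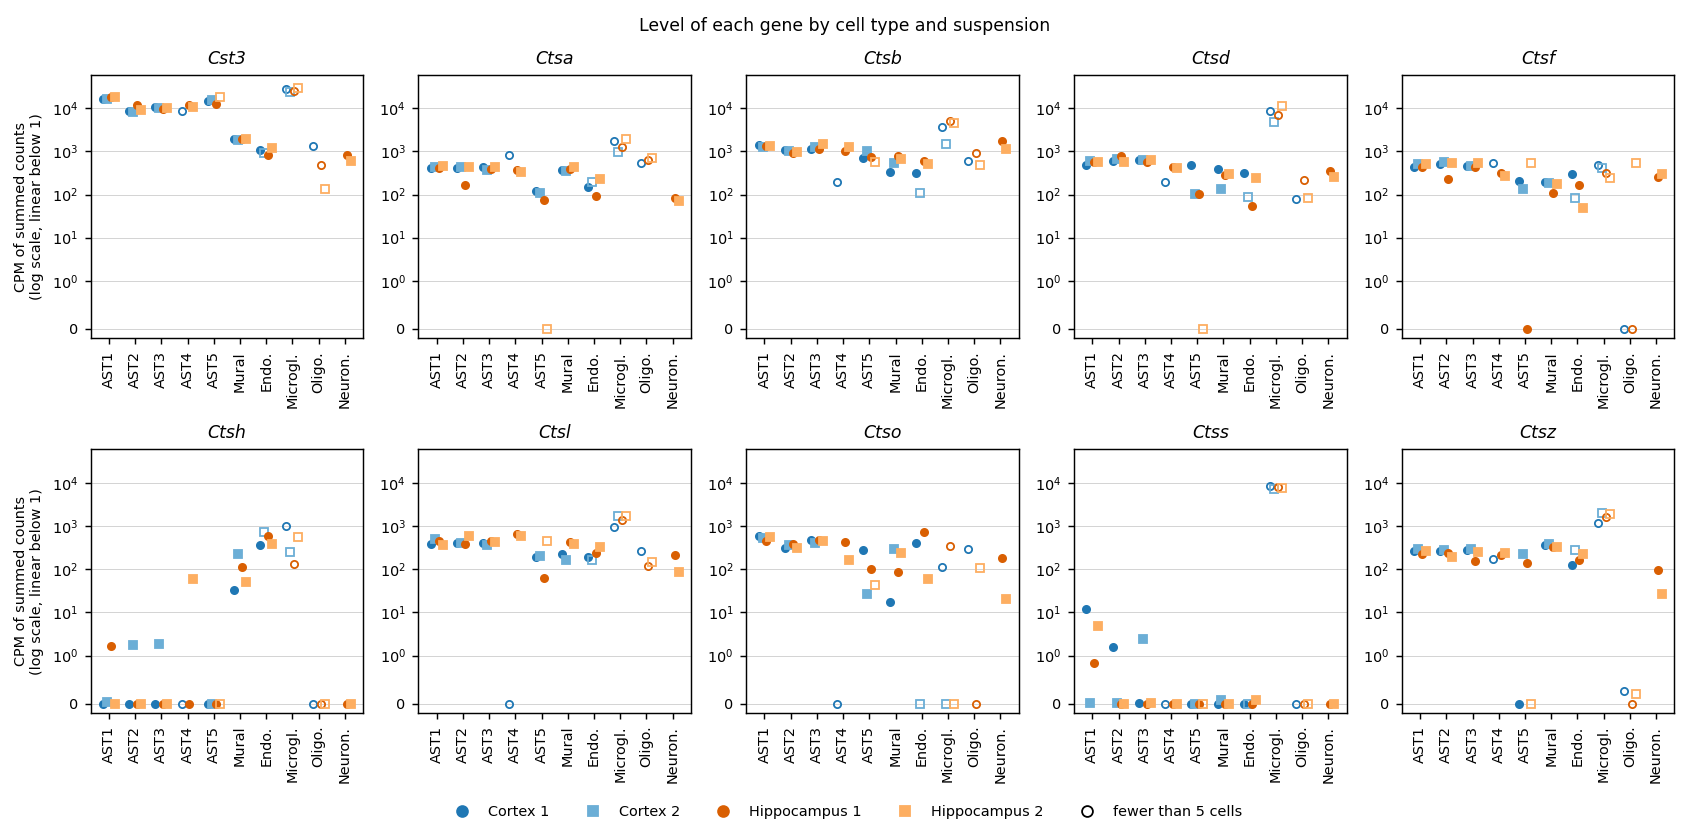
CPM of summed counts (vertical axis, log scale that is linear below 1) for each of the 10 genes by cell type, with 1 point per suspension and open points for fewer than 5 cells. Cst3 lies between 8285 and 18550 in AST1 to AST4 of cortex and hippocampus where 5 cells or more were summed, Ctss lies at 7291 or higher in microglia and at 12.1 or lower elsewhere, and Ctsh is at 1.89 or lower in AST1 to AST3 and at 60.5 in 1 AST4 sum, and above 30 in every mural, endothelial and microglial sum.

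Ctsb, the gene of a cysteine protease with both endo- and exopeptidase action, stood at 1322 ± 53.6 CPM in AST1, 1011 ± 67.8 in AST2 and 1254 ± 139.01 in AST3 (n = 4 each). AST1 values were 1365, 1245, 1350 and 1328 CPM in the 4 suspensions, all above the AST2 values of 1097, 1028, 939 and 979 CPM. AST3, at 1161, 1260, 1147 and 1449 CPM, also lay above every AST2 value but overlapped AST1. Within suspensions the log2 ratio over AST2 had a mean of 0.39 for AST1 and 0.31 for AST3. The medians over all genes at a mean of 10 CPM or more were 0.22 and 0.30, so Ctsb in AST3 lay near the median gene. Members higher in AST3 than AST2 in all 4 suspensions numbered 2 of 8 (Ctsb and Ctso), beside 10.2% of these genes. Nothing is read from that count. Neurons, at 1763 and 1153 CPM in 8 and 9 cells, held Ctsb at the level of astrocytes, and all 17 of them had a count of it. Mural cells stood at 328.2, 539, 794 and 662 CPM, and all 4 lay below the astrocytes of their suspension.

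Ctsd, the gene of the main aspartic protease of lysosomes, stood at 561 ± 50.3 CPM in AST1, 646 ± 90.4 in AST2 and 614 ± 35.99 in AST3 (n = 4 each). Those ranges overlapped. AST4 was lower at 429 and 405 CPM. Mural cells held 387, 133.5, 286 and 303.7 CPM. Microglia stood apart at 8584, 4712, 6962 and 11343 CPM, and the single microglial cells ran from 2920 to 14081 CPM with a median of 7553 CPM, above the 2932 CPM of the highest astrocyte in all cells but the lowest one.

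Ctsl encodes a cysteine endopeptidase that also cuts outside the lysosome in some cells. Its level in AST1 (424 ± 56.1 CPM), AST2 (444 ± 96.3) and AST3 (417 ± 40.2, n = 4 each) did not separate the subtypes. AST4 stood at 652 and 601 CPM in the hippocampal suspensions, against 444 and 366.6 CPM in AST1 of the same suspensions. A count was found in 84.6% of the 91 AST4 cells, against 59.8% of AST1 and 69.9% of AST3 cells, and after every cell was thinned to 50000 counts the shares were 83.5%, 57.5% and 67.7%. The log2 ratio of AST4 over AST1 was 0.63 ± 0.11 (SD, n = 2), and 0.97 ± 0.19 when scaled to spike-in RNA.

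By CPM the other 7 members with regular counts in astrocytes lay the opposite way in AST4, and Ctsh, with few counts, is given below. Ctsl was higher than in AST1 in both suspensions, as were 43.5% of all genes, whose median log2 ratio was 0.25, and the other 7 of 8 (Cst3, Ctsa, Ctsb, Ctsd, Ctsf, Ctso and Ctsz) were lower in both, beside 22.5% of all genes. That count uses values that chose the members, and nothing is read from it. Cst3 in AST4 was 0.70 ± 0.12 lower on the log2 scale (n = 2), at 12000 and 10731 CPM against 18381 and 18550 CPM. Ctsf was 0.73 ± 0.36 lower, at 313.1 and 262.1 CPM against 434 and 519 CPM. Ctso differed most between suspensions, with 427 and 165 CPM against 458 and 543 CPM. Scaled to spike-in RNA the log2 ratio of Ctsa was 0.01, that of Ctsb 0.11 and that of Ctsz 0.23, so the direction of the mean for these 3 genes depends on the scale. For Ctso the spike-in scaled values were 0.18 and -1.33 in the 2 suspensions, so it was no longer lower in both, while Cst3, Ctsd and Ctsf were. Only 2 of the 91 AST4 cells came from cortex. The lower astrocyte marker sums of AST4 went with these values, and their part was not tested.

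**Figure D3:**
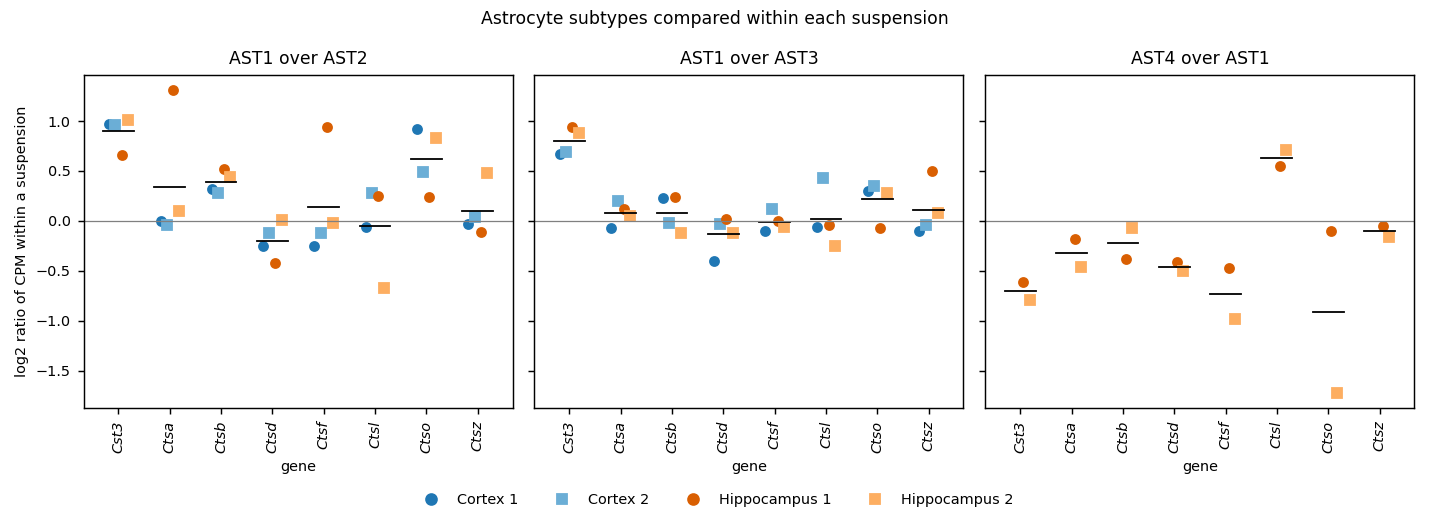
Log2 ratio of CPM between astrocyte subtypes within a suspension (vertical axis, linear) for the 8 genes with regular counts in astrocytes, with points for suspensions and lines for means. Cst3 is above 0 in AST1 over AST2 and over AST3 in all 4 suspensions, and in AST4 over AST1 Ctsl alone is above 0 on this scale, whereas spike-in scaling puts the means of Ctsa, Ctsb and Ctsz above 0 too.

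Ctsf and Ctso, genes of papain-family cysteine proteases, had a higher level in pooled astrocytes than in pooled microglia. Ctsf stood at 470.4 ± 49.002 CPM in AST1 and 474 ± 46.6 in AST3 (n = 4 each). In AST2 it was 505, 552, 226.7 and 525 CPM, where the low value came from 10 cells. The microglial sums held 472, 408, 320 and 247.2 CPM, and their log2 ratio over astrocytes was -0.42 ± 0.42 (n = 4), with a range that touched 0. Mural cells held 195.8, 183.9, 107.5 and 175 CPM.

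Ctso was the one cysteine cathepsin besides Ctsb whose AST1 level in CPM lay above that of AST2 in each suspension; with TMM scaling this was so for Ctsz too. AST1 stood at 584, 514, 458 and 543 CPM and AST2 at 307.6, 367.4, 387 and 305.2 CPM. The log2 ratio was 0.62 ± 0.32 (SD, n = 4), beside a median of 0.22 over all genes, and the values of the subtypes did not overlap. AST3, at 473, 404, 479 and 449 CPM, lay above every AST2 value and overlapped AST1. Its mean log2 ratio over AST2 was 0.41, beside a median of 0.30 over all genes. A count was found in 51.3% of AST1, 40.4% of AST2 and 54.2% of AST3 cells. Microglia held 113.5, 0, 347.8 and 0 CPM, from 2 of 11 cells.

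Ctsa, the gene of a serine carboxypeptidase that protects beta-galactosidase and neuraminidase in the lysosome, and Ctsz, the gene of a cysteine carboxypeptidase, showed little difference between AST1, AST2 and AST3. Ctsa was 428 ± 19.6, 361.9 ± 130 and 408 ± 37.1 CPM (n = 4 each), and Ctsz 259.3 ± 28.6, 244.4 ± 41.4 and 246.9 ± 64.2 CPM. Ctsz was higher in mural cells, at 354.5, 380.5, 318.3 and 324.2 CPM, than in the astrocytes of all 4 suspensions, at 270, 287, 207.4 and 252.2 CPM. The log2 ratio was 0.45 ± 0.12 (n = 4), but scaled to spike-in RNA it was -0.20, so the direction depends on the scale. The partners of Ctsa in its complex, Glb1 and Neu1, stood at 74.1 ± 11.5 and 94.6 ± 17.6 CPM in astrocytes (n = 4 each). Ctsa overlaps Neurl2 and Pltp, Ctsz overlaps Nelfcd, Ctsb overlaps Fdft1, Ctsd overlaps Gm49369 and Ctss overlaps a pseudogene in the annotation, and these libraries do not mark the strand, so reads in stretches shared by exons of both genes could not be assigned.

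AST5, of 26 cells, held fewer cathepsin counts than the other astrocytes. A cell had counts of a mean of 2.23 of the 9 cathepsins, against 4.37 to 4.98 in AST1 to AST4, and 3 of the 26 had none. After thinning the means were 2.15 and 4.24 to 4.85. Ctsa stood at 121.6, 107.3 and 75.5 CPM, and Ctsz at 0, 222.2 and 141.1 CPM in the suspensions with at least 5 cells. Cst3, in contrast, was at 13969 ± 1451 CPM (n = 3). Genes in general were lower in AST5, with a median log2 ratio over AST1 of -1.59 across 7864 genes, and AST5 cells had the low share of reads outside exons given above. The part of RNA quality in these values was not tested. Scaled to spike-in RNA, Cst3 in AST5 lay 0.20 below AST3 on the log2 scale, where by CPM it lay 0.48 above.

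**Figure D4:**
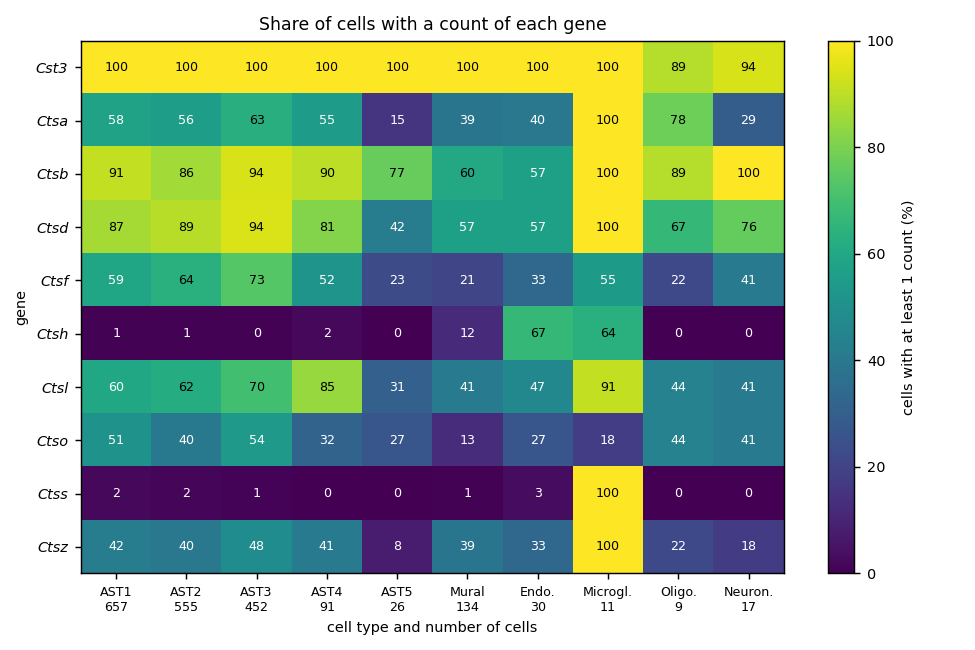
Percent of cells with at least 1 count of each gene (colour and number) by cell type, with the number of cells under each type. Cst3 is found in all astrocytes, Ctsb and Ctsd in over 80% of the cells of AST1 to AST4, and Ctss in all microglial cells but in at most 3.33% of any other type.

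Of the types measured, microglia held the highest summed level of cathepsins. The summed cysteine cathepsins (Ctsb, Ctsf, Ctsh, Ctsl, Ctso, Ctss and Ctsz) came to 15509 CPM in microglia, with a range from 13121 to 16632 CPM over the 4 suspensions, against 2793 ± 125.7 CPM in astrocytes (n = 4). Mural cells stood at 1652 ± 334.4 CPM and endothelial cells at 1916 ± 509 CPM (n = 3). Of the 10 members, 8 were over 2-fold higher in pooled microglia than in pooled astrocytes, beside 27.6% of all 9915 genes at 10 CPM or more, and 1, Ctso, was over 2-fold lower, beside 49.9%. The members were chosen with these levels known, so the count is a description. In the other direction, 3 of 9 members were over 2-fold lower in mural cells, beside 23.6% of genes, and 5 of 9 in endothelial cells, beside 30.9%.

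Ctss, the gene of a cysteine protease that stays active at neutral pH and trims the invariant chain in antigen presentation, marked microglia. All 11 microglial cells held it, from 3811 through a median of 7724 to 11395 CPM, and the sums of the 4 suspensions were 8521, 7291, 7823 and 7645 CPM. Of the 1781 astrocytes, 28 (1.57%) had a count, and in 21 of these it was under 5 counts. The other 7 cells had 100 counts or more, up to 1475 CPM. Of those 7, 2 also had at least 100 counts of the 8 microglial markers, a level that 79 of all 1781 astrocytes reached. The part of microglial RNA in these counts was not tested. In mural and endothelial cells 1 cell each held a single count, at depths like those of astrocytes (medians of 1216970 and 1371880 counts against 1469310), and the shares were 0.746% and 3.33%. These shares rest on 1 cell each and give no precise background, and neither type had a cell with 100 counts.

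The share of Ctss in astrocytes was 0.393% after thinning. Ctsk, its neighbour 17423 bases away on chromosome 3, which encodes a protease of bone resorption, had 0 counts in microglia, and 0.281% of astrocytes held one. Partner genes were also measured. Lgmn, the asparagine endopeptidase that matures several cathepsins, stood at 6561, 4452, 6831 and 7197 CPM in microglia and at 249.1 ± 31.1 CPM in astrocytes. Ctsc, the dipeptidase that activates serine proteases, ranged from 54.6 to 1086 CPM in microglia. Cst7, a cystatin of activated microglia, had 0 counts in every type.

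Ctsd was higher in microglia than in the astrocytes of the same suspension by 3.69 ± 0.60 on the log2 scale (n = 4), a 12.9-fold difference in level. Ctsz followed at 2.69 ± 0.38, Ctsa at 1.78 ± 0.40, Ctsl at 1.72 ± 0.42 and Ctsb at 1.45 ± 0.72. Each microglial sum held 2 or 3 cells. The smallest of these differences was that of Ctsb in the second cortical suspension, where microglia held 1490 CPM against 1129 CPM in astrocytes. Grn, a precursor whose product binds cathepsin D, was 3.27 ± 0.34 higher, while Psap, which encodes the saposin precursor cut by it, differed by 0.22 ± 1.69, a value below its spread. Lamp1, the lysosomal membrane protein gene, was at 1113 ± 161.8 CPM in astrocytes and 1013, 581, 694 and 1554 CPM in microglia, so the groups overlapped.

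Lists of related lysosomal genes were compared in the same way. Of 30 other lysosomal hydrolases at 10 CPM or more, 16 were over 2-fold higher in pooled microglia than in astrocytes and 6 lower, with a median log2 difference of 1.48, where all genes had a median of -0.99. Of 18 vacuolar ATPase genes, which acidify the lysosome, 4 were higher and 4 lower with a median of -0.09, and of 16 lysosomal membrane genes 4 were higher and 3 lower with a median of 0.13. The genes for processing and sorting of cathepsins (16 genes) had a median of -0.41. Of the 13 other cathepsins and 18 other cystatins, 1 each reached 10 CPM in either type.

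Ctsh, the gene of an aminopeptidase, was found in most endothelial and microglial cells and in few astrocytes. Endothelial cells held 370.6, 598 and 375.4 CPM in the suspensions with at least 5 of them and 721 CPM in the 3 cells of the second cortical suspension. A count was found in 20 of 30 endothelial cells (66.7%) and 7 of 11 microglial cells (63.6%). Microglial sums were 1021, 253.3, 133.4 and 550 CPM. Among mural cells 16 (11.9%) had a count, with a highest cell of 1677 CPM, and their sums were 32.1, 228.5, 110.6 and 51.8 CPM. Within 3 suspensions the endothelial level exceeded the mural one by 2.94 ± 0.55 on the log2 scale. Endothelial markers were also present in the mural sums, at 222.03 to 507 CPM summed over 6 markers against 19223 to 24179 CPM in endothelial cells. The mural markers in the endothelial sums were higher, at 10904 to 26306 CPM. The part of either admixture in these Ctsh levels was not tested. Of the 1781 astrocytes, 12 (0.674%) had a Ctsh count, and 5 of them held 100 counts or more. AST4 stood out among the subtypes in 1 suspension, the second hippocampal one, at 60.5 CPM, above the mural sums of 32.1 and 51.8 CPM, where 2 of the 91 AST4 cells had a count and the higher of them stood at 1589 CPM.

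The proportion of the cysteine cathepsins to Cst3 differed between types, with overlaps. Per Cst3 count, astrocytes held 0.227 counts of the 7 cysteine cathepsins (range 0.175 to 0.279 over suspensions). The lowest subtype was AST5, at 0.0951 (0.0843 to 0.105), and AST1 followed at 0.173 (0.158 to 0.189). AST2 at 0.273 (0.186 to 0.318) overlapped AST1, AST3 at 0.284 (0.267 to 0.310) and AST4 at 0.231 (0.220 to 0.241). Microglia held 0.589 (0.547 to 0.676) and overlapped mural cells, at 0.863 (0.595 to 0.966). Endothelial cells held 1.93 (1.28 to 2.97) and neurons 2.87 (2.71 to 3.04). Oligodendrocytic sums, of fewer than 5 cells each, held 4.18 (0.880 to 9.53) and overlapped the mural, endothelial and neuronal ones. In AST5 the summed cathepsins were 1338 ± 280.1 CPM and Cst3 made up 1.40 ± 0.15% of all counts (n = 3). The ratio in AST1 came with a Cst3 share of 1.74 ± 0.12% of all counts, against 0.939 ± 0.153% in AST2 and 1.00 ± 0.04% in AST3 (n = 4 each), while the summed cathepsins were 3005 ± 65.0, 2493 ± 220 and 2845 ± 194.3 CPM. These ratios are of read counts and are not corrected for transcript length.

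The second comparison was between hippocampus and cortex within a type. The members were chosen with their levels by area known, so their estimates and the counts of members called are a description beside the share of all genes, and nothing is read from them. edgeR's quasi-likelihood test was fitted to sums per suspension over all genes, and 0 of 10 members had an adjusted p (Benjamini-Hochberg) under 0.05 in AST1, where 0.0109% of 18406 genes had one. In AST2, 0 of 10 members were called beside 4.16% of genes, in AST3 0 of 10 beside 0.0272%, in mural cells 0 of 9 beside 0%, and in all typed astrocytes together 0 of 10 beside 0%. An unadjusted p under 0.05 was reached by Cst3 in AST1, beside 5.3% of all genes, by Cst3 in AST2, beside 15.8%, by no member in AST3, beside 4.13%, by Ctsb and Ctsl in mural cells, beside 9.05%, and by Cst3, Ctsb and Ctso in all astrocytes, beside 13.6%. The fits had 6 residual degrees of freedom for the subtypes and 2 for the others. The subtype fit took the AST1, AST2 and AST3 sums of a suspension as independent, though they come from the same animals. With each subtype fitted alone the standard error of Cst3 was 0.04 in AST1, 0.08 in AST2 and 0.05 in AST3. Across all genes edgeR called 0 of 10614 in mural cells, with 961 at an unadjusted p under 0.05. DESeq2, fitted without the low-count filter, called 2025 of 16025 genes there. In all astrocytes edgeR called 0 of 19160, with 2609 at an unadjusted p under 0.05, and DESeq2 called 2743 of 26170.

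For Cst3, hippocampus minus cortex was 0.21 ± 0.05 (estimate ± SE) on the log2 scale in AST1 and 0.20 ± 0.05 in AST2. In both, the 2 hippocampal sums lay above the 2 cortical ones. In AST3 the difference was 0.00 ± 0.05, and the areas overlapped. The difference between the effect in AST1 and that in AST3 was itself 0.21 ± 0.07. For it 0 of 10 members were called, beside 0% of 18406 genes. Of these genes 1205 (6.55%), Cst3 among them, had an unadjusted edgeR p under 0.05. DESeq2 called 1859 of the 25560 genes in its fit. The edgeR medians over all genes were 0.18 in AST1, -0.04 in AST3 and 0.37 for the AST1 minus AST3 effect. Cst3 thus lay near the median in AST1 and below it for that effect. Under DESeq2 Cst3 was 0.16 ± 0.11 in AST1 and 0.13 ± 0.16 for the effect, beside medians of 0 and 0.09. Within the first library PCR block alone the Cst3 difference was 0.21 ± 0.10 in AST1 and -0.14 ± 0.10 in AST3. That block held only 38 and 36 hippocampal AST1 cells and 12 and 8 hippocampal AST3 cells. Within freeze/thaw cycles 0 and 1 of the template-switching oligo, it was 0.16 and 0.35 in AST1 and 0.05 and 0.16 in AST2, where hippocampus in cycle 1 was a single sum of 12 cells. AST2 rested on 10 and 22 hippocampal cells. There the estimate was 0.38 under DESeq2, which called 16.9% of all genes, and 0.38 under RLE normalization, which moves the scale of the same counts, and Cst3 was among the genes called with each. An exact permutation test of 2 suspensions against 2 could not give a p under 0.333.

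Over all typed astrocytes Cst3 stood at 10260 and 9744 CPM in cortex and at 15952 and 15509 CPM in hippocampus, a difference of 0.68 ± 0.03 on the log2 scale. DESeq2, which called 10.5% of all genes, gave 0.68, and thinned cells, where 1.37% were called, gave 0.71, and Cst3 was among the genes called with each. The mix of subtypes differed between the areas: AST1 made up 12.4% and 11.02% of cortical astrocytes and 68.96% and 64.02% of hippocampal ones, and AST2 made up 52.1% and 56.7% against 2.54% and 5.14%. With AST1, AST2 and AST3 of each suspension given the same weight, the log2 ratio of CPM was 0.15, where the pooled cells had 0.65. Ctsb (0.21 ± 0.05) and Ctso (0.24 ± 0.06) had estimates above 0 over all astrocytes, and equal weights gave log2 ratios of 0.01 and -0.02. Within the first PCR block the 3 estimates were 0.75 ± 0.14, 0.12 ± 0.13 and -0.12 ± 0.12.

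Areas that do not overlap are frequent with 2 suspensions each. The 2 areas did not overlap for 2 of 10 members in AST1 (Cst3 and Ctsz), beside 38.4% of genes, for 4 of 10 in AST2 (Cst3, Ctsb, Ctss and Ctsz), beside 46.8%, for 2 of 10 in AST3 (Ctsl and Ctsz), beside 35.5%, for 5 of 9 in mural cells, beside 37.2%, and for 6 of 10 in all astrocytes, beside 46%. Ctsz was lower in both hippocampal sums in each of these classes. Taken class by class, so were 2285 of 18406 genes in AST1, 7205 in AST2 and 4262 in AST3. In mural cells it was 1331 of 10614 genes, and in all astrocytes 4624 of 19160. The share of genes lower in every class was not computed, and all astrocytes include the AST1, AST2 and AST3 cells. The estimates of Ctsz were -0.17 ± 0.23 in AST1, -0.49 ± 0.23 in AST2, -0.47 ± 0.23 in AST3 and -0.06 ± 0.27 in mural cells on the log2 scale. The classes come from the same suspensions and are not independent of each other. In AST2 the median over all genes was itself -0.89 (-0.72 with RLE normalization), and both Ctsz and Cst3 lay above it. With DESeq2, fitted without a low-count filter, the median was -0.02 and Ctsz, at -0.31, lay below it.

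In mural cells, Ctsl was 223.5 and 160 CPM in cortex and 426 and 376.9 CPM in hippocampus, a difference of 1.19 ± 0.36 on the log2 scale. Ctsb was 328.2 and 539 CPM against 794 and 662 CPM, a difference of 0.89 ± 0.31. The areas did not overlap for either gene, but the cortical sums held 27 and 12 cells. Within the first library PCR block alone, which splits the cells nearly as the areas do, the estimates were 0.36 ± 0.63 for Ctsl and 0.66 ± 0.39 for Ctsb. Its hippocampal sums held 7 and 9 mural cells. In freeze/thaw cycle 0 of the template-switching oligo they were 1.33 ± 0.39 and 1.82 ± 0.30, and in cycle 1, where cortex was a single sum of 12 cells, they were 0.19 ± 0.57 and 0.30 ± 0.68. The median over all genes was 0.24. In astrocytes the Ctsl estimate was -0.10 ± 0.26 in AST1, 0.15 ± 0.26 in AST2 and 0.27 ± 0.26 in AST3.

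**Figure D5:**
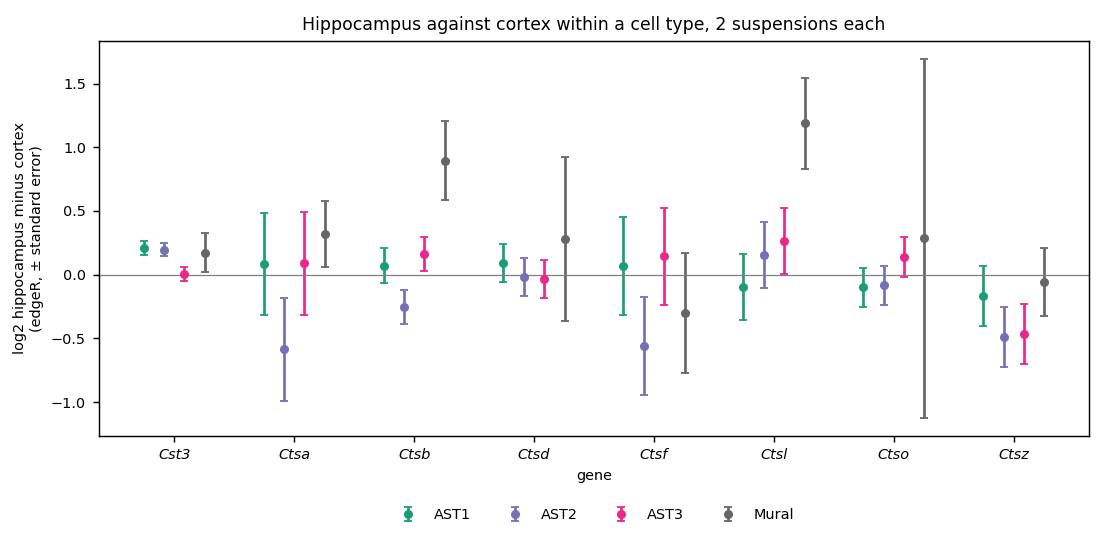
Log2 difference of hippocampus minus cortex within AST1, AST2, AST3 and mural cells (vertical axis, linear) for the 8 genes with regular counts, with points for edgeR estimates and bars for their standard errors from 2 suspensions per area. Cst3 lies at about 0.20 in AST1 and AST2 and at 0 in AST3, with short bars, and the 2 highest points are Ctsl and Ctsb in mural cells.

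Related genes were compared by area in the same fits. Of the genes of the 8 lists that were tested, 0 were called in AST1, in AST3 and in all astrocytes, and 0 of 86 in mural cells. In AST2, 1 was called higher and 8 lower in hippocampus, 8.65% of the list genes tested, beside 27 higher and 738 lower over all genes (4.16%), so most calls of all genes were lower there too. The higher one was Serpine2, the gene of an inhibitor of serine proteases, at 1303 and 1355 CPM in cortex and 2800 and 2086 CPM in hippocampus (0.76 ± 0.12 on the log2 scale, edgeR adjusted p = 0.0116). Among the lower ones were vacuolar ATPase subunit genes. Atp6v1a stood at 155 and 140 against 64.1 and 73.3 CPM (-1.20 ± 0.24 on the log2 scale, edgeR adjusted p = 0.0286). Atp6v0a2 stood at 96.2 and 90.99 against 37.5 and 30.8 CPM (-1.57 ± 0.32, edgeR adjusted p = 0.0340). The 18 vacuolar ATPase genes as a list had a median of -0.23 in AST2, above the median of -0.89 over all genes. Slc17a5, Dnase2a, Galns, Atp6v1g2 and Rragc had 0 counts in both hippocampal AST2 sums, and Gusb in 1 of them, and those sums hold 10 and 22 cells. With AST2 fitted alone, or without either cortical suspension, edgeR called 0 of these list genes.

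The levels of members in single cells were hardly correlated. Over the 28 pairs of the 8 regularly counted members, Spearman's rho within a subtype and suspension of at least 50 cells (10 such groups, 1632 cells) had a median of 0.03, and the medians of single pairs ran from -0.05 to 0.13. The highest was Cst3 with Ctsd, at 0.13, with a range from -0.07 to 0.24 over the 10 groups. Cells of a group come from 1 suspension and differ in depth and technical block, and in sparse counts a rho of this size is no finding.

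The genes whose level was most like that of Cst3 across 26 sums of types and suspensions, among 9765 genes at a mean of 10 CPM or more, were, on the log2(CPM + 1) scale, Mlc1 (Pearson's r = 0.962), Pantr1 (0.961), Dab1 (0.961), Ppp1r1b (0.960) and Gpc5 (0.959). Microglia had no sum of 5 cells and did not enter. Across the 17 astrocyte sums alone they were Apoe (0.834), which encodes the main lipoprotein of the brain, Fam213a (0.697), Clu (0.631), another secreted lipoprotein component, Cpe (0.628) and Dad1 (0.624). For the other members the nearest genes were Pigh for Ctsa (0.932), Bicd1 for Ctsb (0.867), Slc1a4 for Ctsd (0.891), Atp6v0b for Ctsf (0.935), Tgm2 for Ctsh (0.975), Nt5c3 for Ctsl (0.822), Fam171a1 for Ctso (0.873) and Rbm39 for Ctsz (0.917). The nearest gene to Ctss reached 0.591 (Meis2), from sums that held almost none of it. Several points of these correlations come from the same suspension or the same type.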

How the data were processed

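Single cells were sequenced with Smart-seq2 libraries that do not mark the strand. The authors aligned reads with STAR 2.5.2b to the mouse genome (GRCm38.p5, Gencode M12) with spike-in sequences, kept unique reads and deposited raw counts per gene from HTSeq, 1 file per cell. The reads were checked with FastQC 0.11.4. Types came from the study's cell list, matched by cell name. In it 15 cells had no type, and 33 found no match. Of 2031 labelled cells 1 had no file used here. In the deposited table of the whole series, 4 columns held the same total and the same counts of the 10 members as the cell files, and 2027 were not used.

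Counts were summed per type and suspension, the replicate, for sums of at least 5 cells. CPM is the scaled sum. Ratios between types were taken within suspensions, as a description. Brain areas were compared with edgeR 4.0.16 (quasi-likelihood, TMM, low-count filter, Benjamini-Hochberg adjustment at 0.05) across all genes, in 1 fit over AST1, AST2 and AST3, and separately for mural cells and for all astrocytes. DESeq2 1.42.0, RLE normalization, no filter, cells thinned to 50000 counts, single technical blocks and leaving out suspensions were the alternatives. Spike-in scaling and equal subtype weights were added after seeing the data. The members and the gene lists were chosen with earlier results of these data known. Named genes were all members, their partners, up to 3 called genes per list and the most alike genes. The AST1 and mural fits were tested on simulated data with 200 genes changed by 2 on the log2 scale. They made no false call but found only 2 and 0 of these genes. A count of 0 called members in AST1 or mural cells therefore says little about whether they differ. The simulated spread was set without an area term, and its changed genes do not stand for one as high as Cst3. The other comparisons were not simulated. Replicate numbers were used as suspension names; subtypes of a suspension come from the same animals, so the replicate block applies to the difference between AST1 and AST3 effects.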

Additional observations from a re-analysis of the deposited data

Results flagged for a closer look

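Of 50 sets of 4 suspension values, 9 held a value set apart from the other 3. The sets share cells, and a gene with counts in 1 suspension only is flagged by construction, so no chance rate is given. In AST2 the first hippocampal suspension, of 10 cells, was lowest for Ctsa (166.9 CPM) and Ctsf (226.7 CPM), and the second hippocampal one, of 22 cells, was highest for Ctsl (586.003 CPM). The other 6 were single suspensions for Ctsh and Ctss, of which 0.442% to 1.80% of the cells of these types held a count. In the 5 astrocyte cases the highest cell stood at 266.2 to 553 CPM, and the mural case was a single count. Ctsh was highest at 1.70 CPM in AST1 of the first hippocampal suspension, at 1.71 CPM in AST2 and at 1.89 CPM in AST3 of the second cortical one. Ctss was highest at 1.55 CPM in AST2 of the first cortical suspension, at 2.37 CPM in AST3 and at 0.0676 CPM in mural cells of the second.

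Ctsb lay in opposite directions by area in AST2 and mural cells. The log2 ratio of mean CPM in hippocampus over cortex was -0.15 in AST2 and 0.75 in mural cells, with no overlap of the areas in either. The difference between the types was not tested.

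Cells outside the typed groups also held members. The 15 cells with no type held 5 of the 10 members in more than 3 cells, with a median Cst3 level of 15779 CPM. They had a median of 1.61% of reads outside exons, near that of AST5. The 33 cells without a match in the cell list, all of the first cortical suspension, held 8 members in more than 3 cells, with a median Cst3 level of 7500 CPM.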

How the results depend on the processing

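For the number of members called by area, every alternative in AST1, AST3, mural cells and the AST1 minus AST3 effect gave 0. Of all genes DESeq2 called 6.58% in AST1, 5.29% in AST3, 12.6% in mural cells and 7.27% for that effect. The first PCR block called 3.62% in AST3 and 2.26% for the effect. Other edgeR settings on all 4 suspensions called at most 0.0587% (AST3, thinned cells). In AST2 DESeq2 gave 1 (Cst3), beside 16.9% of all genes, and RLE normalization 1 (Cst3), beside 4.09%. Leaving out a suspension gave 0 to 3 there, the 3 (Cst3, Ctsa and Ctsf) without the second hippocampal one, where 18.6% of all genes were called. In all astrocytes DESeq2 gave 3, beside 10.5%, and thinned cells 1, beside 1.37%. With AST1, AST2 and AST3 weighted equally, the Cst3 ratio was 0.15. Cst3 in AST1 over AST2 was 1.07 with TMM scaling. With spike-in scaling Cst3 was 0.45 in AST1 over AST3, -0.37 in AST4 over AST1 and -0.20 in AST5 over AST3, and Ctsz was -0.20 in mural cells over astrocytes. The Cst3 area difference in AST3 was -0.0048 in thinned cells, -0.14 in the first library PCR block, -0.0721 in freeze/thaw cycle 1 of the template-switching oligo, and -0.0417 to 0.0567 without a suspension. In the first PCR block Cst3 was -0.0258 in mural cells and Ctso -0.12 in all astrocytes. The cause of these changes was not tested.

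With the replicate block, subtypes of a suspension are paired by their source. For the AST1 minus AST3 effect it gave 0 called members, beside 0% of 18406 genes, and a Cst3 value of 0.21. Without the block no gene was called either.

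Over all genes, edgeR called 2 in AST1, 765 in AST2 and 5 in AST3, and DESeq2 called 1682, 4320 and 1351. In AST2 other edgeR settings called 0 to 928 and leaving out a suspension 0 to 3845, with 0 without either cortical suspension. In AST3 they called 0 to 590, in all astrocytes up to 1.37% of genes (thinned cells) and for the AST1 minus AST3 effect up to 2.26% (first PCR block). The first PCR block in AST2 held too few cells and was not run. With 2 suspensions per area, from different litters, p-values measure no more than the spread between these suspensions. For the subtypes that spread was estimated over AST1, AST2 and AST3 sums of the same suspensions, taken as independent.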
